A study of Mus musculus with 6 samples.

Results

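Trnp1 and 9 genes of core BAF chromatin remodelling subunits were followed in the RNA of splenic CD8+ T cells. The 10 genes were given as a list of symbols (Trnp1, Smarca4, Smarca2, Smarcc1, Smarcc2, Smarcb1, Smarcd1, Smarce1, Arid1a and Actl6a) and matched to Ensembl identifiers. All 10 were found among the 19323 genes of the deposited table, and all 10 passed the filter on low values that left 13430 genes to test. The MCDHFD group holds 3 libraries from C57BL/6 mice, genotype WT, that were given the diet labelled MCDHFD for 7 weeks from an age of 6 weeks. The ND group holds 3 libraries from C57BL/6 mice of the same genotype and age that were given the diet labelled ND for the same time. Per the labels the mice serve to model MASH, in which fat builds up in the liver and the organ is inflamed. The sources used here do not give how the cells were isolated or whether a library is 1 animal or a pool. The p-values therefore cover the spread between these 6 samples, part or all of which may be technical.

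The BAF complex (the mammalian SWI/SNF complex) uses ATP to slide or evict nucleosomes and so opens enhancers and promoters. Each complex carries either SMARCA4 or SMARCA2 as its ATPase, around a shared core. The canonical form is marked by an ARID1 subunit, the PBAF form by ARID2 and PBRM1, and the non-canonical form by BRD9. In mouse T cells the complex is known for its part in thymocyte development and in the effector differentiation of activated CD8+ T cells. TRNP1 is a small nuclear protein best known from the developing mouse cerebral cortex, where it acts on the division of neural progenitors. Its name comes from TMF1, a protein that binds it and leads to its breakdown.

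The 250 bases before the annotated start are printed for Trnp1, which had the largest fold change of the 10 members, for Arid1a and Actl6a, which had the lowest and the highest fold changes among the 9 subunits, and for Smarca4, an ATPase gene that did not pass the test. The sequences are RefSeq's on GRCm38.p6, the assembly called mm10, read 5′ to 3′ on the strand of the gene. Capitals mark CCAAT and GGGCGG boxes on either strand and TATAA on the strand of the gene.
Trnp1, chr4:133498551-133498800, minus strand: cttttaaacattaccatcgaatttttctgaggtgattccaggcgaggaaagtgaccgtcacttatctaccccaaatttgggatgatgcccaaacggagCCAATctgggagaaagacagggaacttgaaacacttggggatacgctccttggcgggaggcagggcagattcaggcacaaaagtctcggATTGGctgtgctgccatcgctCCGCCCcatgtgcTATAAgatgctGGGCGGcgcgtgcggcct
Arid1a, chr4:133756770-133757019, minus strand: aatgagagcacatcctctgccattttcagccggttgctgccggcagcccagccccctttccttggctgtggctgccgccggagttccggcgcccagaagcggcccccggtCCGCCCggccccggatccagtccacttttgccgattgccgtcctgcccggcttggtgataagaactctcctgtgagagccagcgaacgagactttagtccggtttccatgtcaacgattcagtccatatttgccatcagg
Actl6a, chr3:32708296-32708545, plus strand: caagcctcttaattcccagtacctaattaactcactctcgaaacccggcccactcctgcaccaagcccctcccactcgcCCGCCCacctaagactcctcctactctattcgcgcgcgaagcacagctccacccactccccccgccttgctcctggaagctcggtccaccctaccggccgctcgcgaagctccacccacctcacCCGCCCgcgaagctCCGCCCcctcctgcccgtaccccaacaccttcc
Smarca4, chr9:21615919-21616168, plus strand: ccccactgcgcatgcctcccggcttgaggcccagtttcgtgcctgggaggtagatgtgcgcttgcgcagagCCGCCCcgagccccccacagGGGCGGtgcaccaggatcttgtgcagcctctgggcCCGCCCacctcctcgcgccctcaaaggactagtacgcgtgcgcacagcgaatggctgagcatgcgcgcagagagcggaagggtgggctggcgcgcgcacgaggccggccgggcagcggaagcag

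RefSeq windows were found for 9 of the 10 members, with 2 starts for Arid1a, of which the outer one is printed. The Trnp1 window holds TATAA 29 bases before the start and 2 CCAAT boxes, and none of the other 9 windows of members holds either. Over all 32851 windows of that length, 16.0% hold TATAA and 33.8% hold CCAAT. The Trnp1 window also has the fewest CG pairs of the member windows, 13, and a GC content of 53.2%, against 18 CG pairs and 61.2% in the outer Arid1a window, 19 and 64.8% in the Actl6a window and 25 and 70.8% in the Smarca4 window. Over all 32851 windows the medians were 6 CG pairs and a GC content of 52.4%. A GGGCGG box stands in 32.7% of all windows, 2 times in the Trnp1 window, and is missing among the members only from the window of Smarcc2. These are letters in a window, and no binding was measured.

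Trnp1 (ENSMUSG00000056596, chromosome 4, 133491100 to 133498550, minus strand, protein-coding, 2 annotated transcripts) was the member that differed most. It had 2420, 2318 and 2280 normalized counts in MCDHFD replicates 1 to 3, against 147.8, 183.9 and 198.0 in ND replicates 1 to 3. Every MCDHFD library was above every ND library, and the MCDHFD libraries lay close together. The means were 2339 ± 72.4 in MCDHFD and 177 ± 25.9 in ND (SD, n = 3 each), a ratio of 13.3. On the log2 scale it rose by 3.73 (SE 0.11, limma adjusted p = 7.25e-08), and 98.9% of the tested genes had a lower value. The exact two-sided permutation test gave p = 0.1, the smallest that 3 against 3 libraries allow. Leaving out any 1 library moved the log2 fold change between 3.61 and 3.82.

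**Figure D1:**
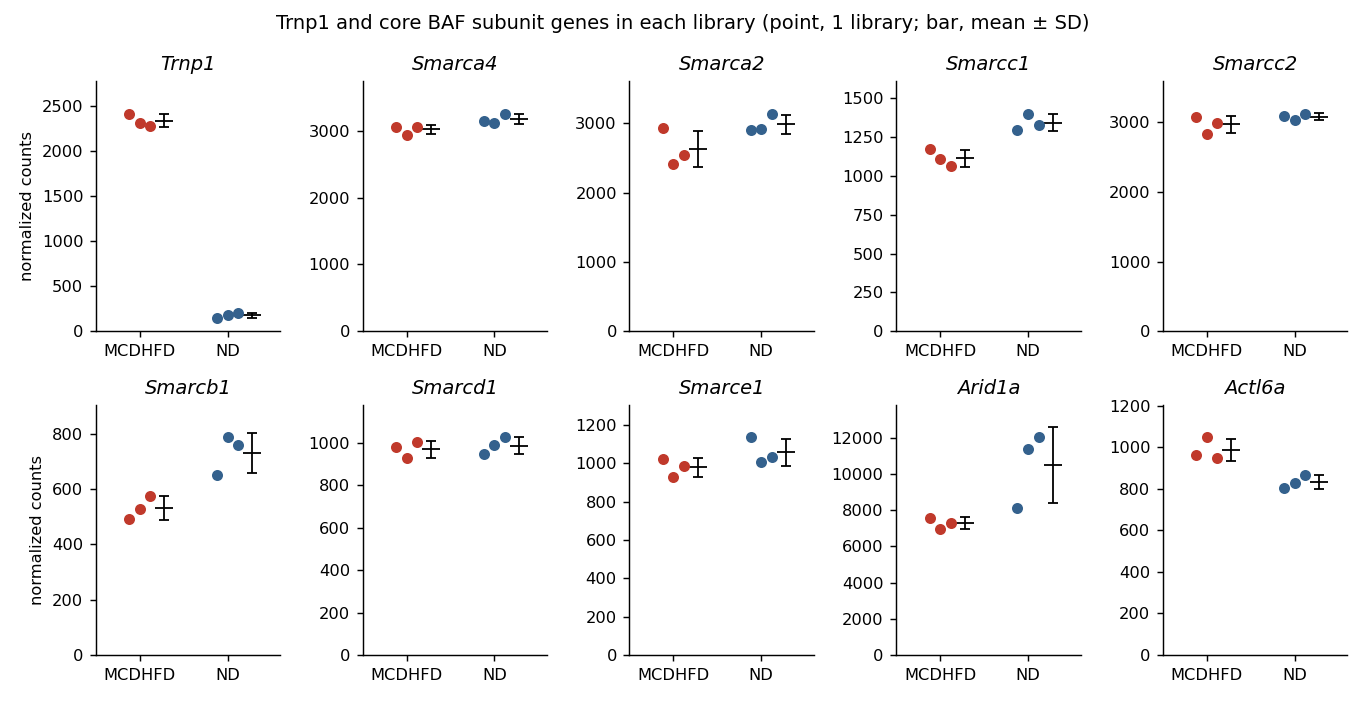
Normalized counts (vertical axes, each from 0) of Trnp1 and the 9 core BAF subunit genes in the 3 MCDHFD and the 3 ND libraries, with 1 point per library and a bar for the mean ± SD. The MCDHFD points of Trnp1 sit between 2280 and 2420 and the ND points below 200, while the points of the subunits lie at similar heights, except that those of Arid1a, Smarcb1, Smarcc1 and Actl6a stand apart.

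The labelled cell type was present in all 6 libraries, and markers of other cells moved with the diet too. Of 20 CD8 T cell identity genes, 20 were lower in MCDHFD, and their summed level was 54871 to 61570 normalized counts in MCDHFD, against 113668 to 114594 in ND. Cd8a, the co-receptor gene, had 5772, 4884 and 5135 in MCDHFD, against 14172, 13690 and 13491 in ND. Cd3e, a chain of the T cell receptor complex, averaged 1840 ± 140.1 in MCDHFD and 3670.4 ± 177 in ND. In such bulk samples fewer cells of a type and less RNA per cell cannot be told apart.

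Monocyte and macrophage genes were higher in 19 of 21 and lower in 1, with summed levels of 326916 to 401038 in MCDHFD, against 62980 to 75429 in ND. Erythroid genes were higher in 17 of 17 (18757 to 29450 in MCDHFD, 4276 to 4502 in ND), and neutrophil genes in 14 of the 16 tested of 17 (11360 to 19178 in MCDHFD, 1827 to 2642 in ND). Of the neutrophil list, Csf3r and Cxcr2 did not pass (limma adjusted p = 0.304 and 0.895) and Ly6g was below the filter. Plasma cell genes were higher in 5 of the 8 tested of 9 and lower in 1 (11017 to 16137 in MCDHFD, 5573 to 5884 in ND). B cell genes were lower in 11 of 12 and higher in 1, Ighm (17472 to 20286 in MCDHFD, 19876 to 22332 in ND). Ighm made up most of that sum, with means of 16685 in MCDHFD and 12576 in ND. Dendritic cell genes were lower in 11 of 13 and higher in 2 (26610 to 27519 in MCDHFD, 57756 to 62059 in ND). Of the dendritic cell sum, Ccr7 had means of 10824 in MCDHFD and 16304 in ND, and Cd74 had 8090 in MCDHFD and 22629 in ND. H2-Ab1 (3469.5 in MCDHFD and 9820 in ND) and H2-Aa (2918 in MCDHFD and 8008 in ND) came next. Together these genes made up most of the dendritic cell sum. NK cell genes were lower in 4 of the 5 tested of 8 (1953 to 2101 in MCDHFD, 3946 to 4135 in ND). Nkg7 made up most of the NK cell sum, with means of 1523 in MCDHFD and 2858 in ND, and Klrb1c did not pass. CD4 and regulatory T cell genes were lower in 5 of 7 and higher in 1, Zbtb7b (2945 to 3011 in MCDHFD, 4727 to 5022 in ND). Cd4 itself did not pass, with means of 331 in MCDHFD and 290 in ND (limma adjusted p = 0.258). Most of that sum came from Ctla4 (means of 1100 in MCDHFD and 2096 in ND) and Icos (874 in MCDHFD and 1818 in ND). No marker was at 0 in all 6 libraries, and 1, the dendritic cell gene Cd209a, was at 0 in all 3 MCDHFD libraries (44.1, 43.8 and 36.6 in ND).

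The ratio of Trnp1 between the diets was above that of the summed level of each list, but some members of the lists differed by more than Trnp1. A log2 fold change above that of Trnp1 was found for 7 of 16 neutrophil genes, 4 of 17 erythroid genes, 2 of 21 macrophage genes and 1 of 8 plasma cell genes, and for no tested member of the other 5 lists. Msr1, a macrophage scavenger receptor gene, had 2250, 2686 and 2772 normalized counts in MCDHFD, against 17.6, 19.5 and 21.8 in ND. Car1, a carbonic anhydrase gene of red cell precursors, had 1391, 1982 and 2097 in MCDHFD, against 24.5, 19.5 and 13.9 in ND. Per 1000 normalized counts of the CD8 T cell identity list, Trnp1 had 40.9 ± 1.49 counts in MCDHFD and 1.55 ± 0.233 in ND, a ratio of 26.4. Set against the lists that were higher in MCDHFD, the gap was smaller and the diets still did not overlap. Per 1000 counts of the macrophage list Trnp1 had 7.402, 5.80 and 5.68 counts in MCDHFD, against 2.35, 2.44 and 2.72 in ND, a ratio of means of 2.52. Against the erythroid list the ratio of means was 2.37, and against the plasma cell list 5.46. Against the neutrophil list it was 1.87, with 121 counts in the lowest MCDHFD library and 108 in the highest ND library. The part of these cells in the Trnp1 difference was not tested.

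The genes with the pattern most like that of Trnp1 were picked by Pearson correlation of log2 values over the 6 libraries, among the 10483 genes whose mean reached 50. They were Pcolce2 (r = 0.9997), Cpne8 (0.9996), Ttyh3 (0.9995), Fkbp5 (0.9995) and Sbno2 (0.9994). Fkbp5 encodes a co-chaperone of the glucocorticoid receptor and Pcolce2 an enhancer of procollagen processing. Fkbp5 had 7770, 8153 and 7348 normalized counts in MCDHFD, against 894.8, 1023 and 1063 in ND, and Pcolce2 had 608.0, 567.1 and 608.5 in MCDHFD, against 71.5, 83.7 and 87.1 in ND. Since the 6 points form 2 groups by diet, 551 of these genes had r above 0.99, and the order among them describes small differences between libraries.

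Tmf1, whose protein binds TRNP1, did not pass the test. It had 1111, 946.5 and 1073 normalized counts in MCDHFD, against 1173, 1080 and 979.9 in ND, and the groups overlap (log2 fold change -0.05, SE 0.09, limma adjusted p = 0.673).

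Among the 9 core BAF subunits, 1 was higher and 3 were lower in MCDHFD and 5 did not pass the test. Across all tested genes 30.3% were higher and 28.1% lower, 58.4% in all, so a count of 4 of 9 does not set the subunits apart. None of the 9 reached a 2-fold change, which 20.7% of tested genes did. Their median log2 fold change was -0.11, against 0.00 for all tested genes, and the median of its absolute size was 0.19, against 0.40. The summed level of the 9 genes was 19674 to 21289 normalized counts in MCDHFD, against 22071 to 26571 in ND.

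The ATPase genes stood close to each other in both diets. Smarca4 (ENSMUSG00000032187, chromosome 9, 21616169 to 21704230) encodes the BRG1 ATPase and had 3061, 2943 and 3059 normalized counts in MCDHFD, against 3145, 3110 and 3255 in ND. All MCDHFD values were just below all ND values, and the difference did not pass the test (log2 fold change -0.07, SE 0.05, limma adjusted p = 0.244). Smarca2 (ENSMUSG00000024921, chromosome 19, 26605050 to 26778322) encodes the alternative ATPase BRM and had 2929, 2416 and 2552 in MCDHFD, against 2906, 2915 and 3142 in ND. The groups overlapped through MCDHFD replicate 1, and Smarca2 did not pass either (log2 fold change -0.19, SE 0.08, limma adjusted p = 0.0623). Without that library it passed, at -0.27 (limma adjusted p = 0.00587).

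Of the scaffold genes, Smarcc1 fell and Smarcc2 did not pass the test. Smarcc1 (ENSMUSG00000032481, chromosome 9, 110117708 to 110240178), which encodes a scaffold subunit that forms dimers with its paralogue, had 1174, 1107 and 1063 normalized counts in MCDHFD, against 1294, 1402 and 1331 in ND. The groups did not overlap, and Smarcc1 fell by 0.27 on the log2 scale (SE 0.06, limma adjusted p = 0.00511). Smarcc1 overlaps Dhx30 on the opposite strand, and without a known strand setting their reads cannot be told apart there. Smarcc2 (ENSMUSG00000025369, chromosome 10, 128459248 to 128490482) had 3080, 2835 and 2991 in MCDHFD, against 3084, 3030 and 3122 in ND, which overlap (log2 fold change -0.05, SE 0.05, limma adjusted p = 0.400).

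Smarcb1 (ENSMUSG00000000902, chromosome 10, 75896769 to 75921617, minus strand) encodes the core subunit that contacts the nucleosome and is lost in rhabdoid tumours. It had 490.3, 527.8 and 574.9 normalized counts in MCDHFD, against 650.0, 787.0 and 759.2 in ND. All MCDHFD libraries lay below all ND libraries, and Smarcb1 fell by 0.46 on the log2 scale (SE 0.09, limma adjusted p = 0.00272), a ratio of means of 0.725. Smarcd1 (ENSMUSG00000023018, chromosome 15, 99702129 to 99713991), a core subunit that links the complex to transcription factors, had 979.8, 926.8 and 1004 in MCDHFD, against 946.6, 989.3 and 1026 in ND. Its groups overlapped (log2 fold change -0.03, SE 0.06, limma adjusted p = 0.748). Smarce1 (ENSMUSG00000037935, chromosome 11, 99209047 to 99231017, minus strand), the HMG-box subunit that binds DNA, had 1021, 926.8 and 986.5 in MCDHFD, against 1135, 1004 and 1030 in ND, and also overlapped (log2 fold change -0.11, SE 0.07, limma adjusted p = 0.205).

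Arid1a (ENSMUSG00000007880, chromosome 4, 133679008 to 133756769, minus strand) encodes the large DNA-binding subunit of the canonical complex and had the lowest fold change of the 9. It had 7590, 6945 and 7312 normalized counts in MCDHFD, against 8109, 11410 and 12037 in ND. The groups did not overlap, but ND replicate 1 stood far below the other ND libraries and near the MCDHFD ones, and the ND values varied by 20.1% (SD over mean), against 4.44% in MCDHFD. Arid1a fell by 0.51 on the log2 scale (SE 0.13, limma adjusted p = 0.00905). Leaving out any 1 library gave log2 fold changes between -0.69 and -0.40, all past the threshold.

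Actl6a (ENSMUSG00000027671, chromosome 3, 32706298 to 32726973) encodes an actin-related subunit that the BAF complex shares with the INO80 complex, and it was the only core subunit gene that rose at the deposited scaling. It had 964.7, 1048 and 946.3 normalized counts in MCDHFD, against 801.8, 827.9 and 869.0 in ND. All MCDHFD libraries were above all ND libraries, and the log2 fold change was 0.24 (SE 0.07, limma adjusted p = 0.0115). Actl6a overlaps Mrpl47 on the opposite strand, and their reads cannot be told apart there. Under quantile scaling Actl6a did not pass (log2 fold change 0.17, limma adjusted p = 0.0517). Of the 9 core subunits 5 had diets that did not overlap, Smarca4 with the 4 that were called, and 65.4% of all tested genes did the same.

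The directions of the 9 subunits depend on the scaling. When libraries were scaled so that the CD8 T cell identity genes had 1 mean log2 value, the median over all tested genes moved by 1.01, and all 9 subunits were higher, as were 83.2% of all tested genes. Their log2 fold changes then ran from 0.50 (Arid1a) to 1.26 (Actl6a), and 8 of them lay below the median of all tested genes, 1.02. Trnp1 was at 4.74 under that scaling. Under quantile scaling 6 of the 9 were lower and none higher, with Smarca4, Smarca2 and Smarce1 now called, beside 33.9% of all tested genes lower and 26.4% higher.

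**Figure D2:**
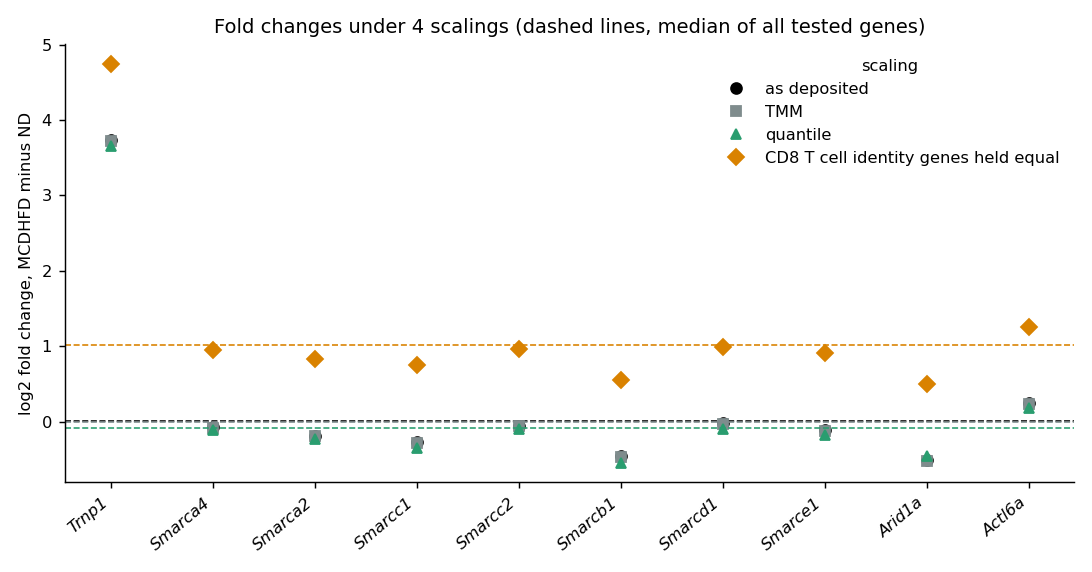
Log2 fold change, MCDHFD minus ND (vertical axis), of Trnp1 and the 9 core BAF subunit genes (horizontal axis) under 4 scalings, with dashed lines at the median of all tested genes under each. With the CD8 T cell identity genes held equal all points move up together by about the shift of the median, 1.01, and the order of the genes is kept.

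Ratios of genes within a library do not depend on the scaling between libraries. Set against Smarca4 of the same library, 3 subunits were lower in MCDHFD and 1 was higher without overlap between the diets. Of single tested genes, 65.4% likewise did not overlap between the diets. The log2 ratio of Arid1a to Smarca4 was 1.31, 1.24 and 1.26 in MCDHFD, against 1.37, 1.87 and 1.89 in ND. That of Smarcb1 was -2.64, -2.48 and -2.41 in MCDHFD, against -2.27, -1.98 and -2.10 in ND. That of Actl6a was -1.66, -1.49 and -1.69 in MCDHFD, against -1.97, -1.91 and -1.90 in ND. So Arid1a and Smarcb1 stood lower, and Actl6a higher, relative to the ATPase gene in every MCDHFD library than in any ND library. Smarcc1 was the other subunit that stood lower (mean -1.44 ± 0.08 in MCDHFD and -1.24 ± 0.08 in ND, SD, n = 3 each). Smarcc2, Smarcd1, Smarce1 and Smarca2 overlapped between the diets, with differences of 0.02, 0.04, -0.04 and -0.12. Trnp1 was higher by 3.80 relative to Smarca4. Each ratio without overlap gave p = 0.1 in the exact permutation test, the smallest possible, and 0.18 after adjustment over the 9 ratios, so none passed.

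Per kb of coding-transcript exons, the order of the members was led by different genes in the 2 diets. In MCDHFD Trnp1 came first with 1414 ± 43.8 normalized counts per kb (SD, n = 3), ahead of Arid1a (850 ± 37.8), Smarcc2 (578 ± 24.1), Actl6a (491 ± 26.9) and Smarca4 (474 ± 10.6). In ND Arid1a came first with 1228 ± 246, then Smarcc2 (599 ± 8.94) and Smarca4 (497 ± 11.9), and Trnp1 was last with 107 ± 15.6. Smarcc1 was the lowest subunit gene per kb in both diets, at 172 ± 8.62 in MCDHFD and 207 ± 8.44 in ND. In MCDHFD the levels of Actl6a and Smarca4 overlapped, as did each step from Smarca2 (361 ± 36.4) over Smarce1 (335 ± 16.4) and Smarcb1 (320 ± 25.5) to Smarcd1 (293). In ND the levels of Smarcb1 (441 ± 43.6), Actl6a (414 ± 16.9) and Smarca2 (409 ± 18.3) overlapped in turn, and no other pair next to each other did.

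The 22 other BAF genes cover the subunits that mark each form of the complex, paralogues and accessory subunits. Of these, 19 were tested, of which 3 were higher and 10 lower, with a median log2 fold change of -0.32. Beside 28.1% of all tested genes that were lower, this is 10 of 19. With the CD8 T cell identity genes held equal, 15 were higher and 1, Bcl11a, was lower, beside 83.2% of all tested genes higher. The median was then 0.69 for the 19 and 1.02 for all tested genes.

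**Figure D3:**
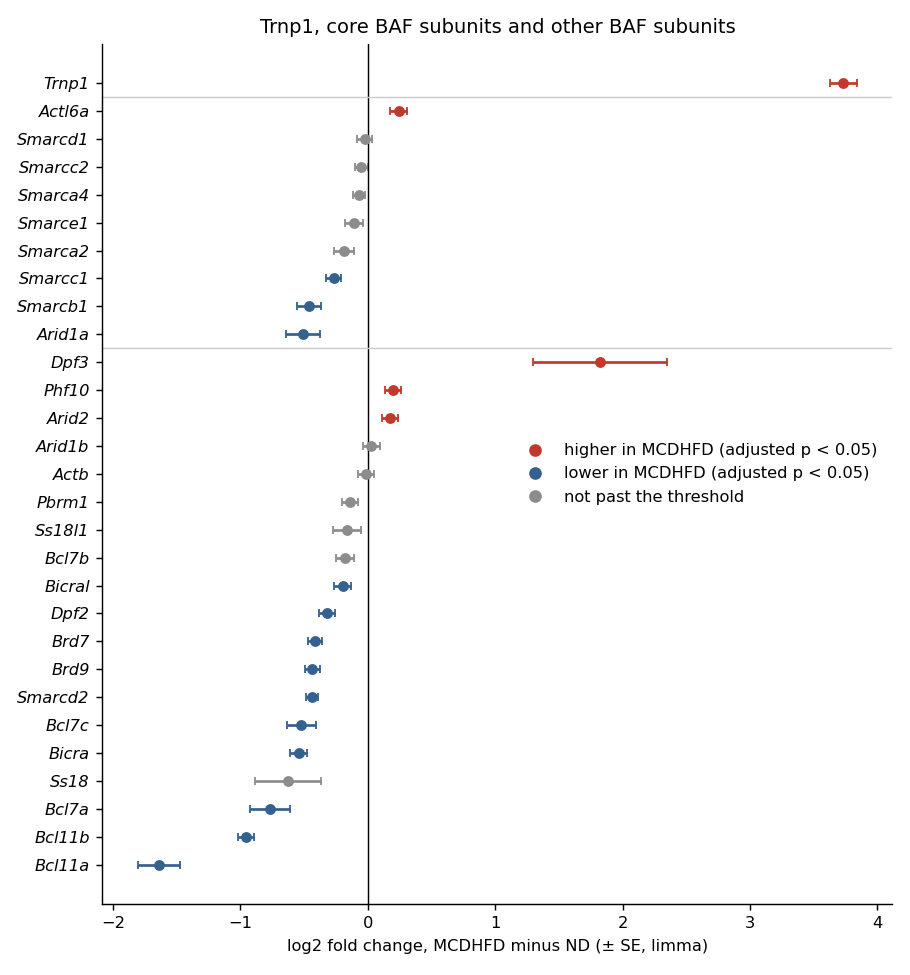
Log2 fold change, MCDHFD minus ND, with its SE from limma (horizontal axis) for Trnp1, the 9 core BAF subunit genes and the 19 tested other BAF genes, in 3 blocks from top to bottom. Trnp1 lies at 3.73, the core subunits between -0.51 and 0.24, and the others between -1.64 (Bcl11a) and 1.82 (Dpf3).

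Genes that mark the canonical complex were mixed. Arid1b, the paralogue of Arid1a, had 2382, 2092 and 2149 normalized counts in MCDHFD, against 2208, 2066 and 2214 in ND, which overlap (log2 fold change 0.03, limma adjusted p = 0.728). Dpf2, a histone reader subunit, fell by 0.32 on the log2 scale, with 1157, 1203 and 1246 in MCDHFD, against 1432, 1489 and 1585 in ND. Its paralogue Dpf3, known from heart and muscle, was scarce. Dpf3 had 16.0, 32.4 and 16.8 counts in MCDHFD, against 2.0, 8.8 and 6.9 in ND, and rose by 1.82 on the log2 scale (SE 0.53, limma adjusted p = 0.0157). Without MCDHFD replicate 2 Dpf3 no longer passed (log2 fold change 1.51, limma adjusted p = 0.0634).

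Of the 4 PBAF genes 2 were higher, 1 was lower and 1 did not pass, beside 30.3% of all tested genes higher and 28.1% lower. Arid2, which takes the place of an ARID1 subunit, had 2664, 2369 and 2425 normalized counts in MCDHFD, against 2348, 2114 and 2149 in ND, a log2 fold change of 0.17 at the edge of the threshold (limma adjusted p = 0.0477). It did not pass in edgeR or DESeq2 (adjusted p = 0.160 and 0.234), with no filter, under TMM or quantile scaling (0.0622, 0.0622 and 0.102), or without MCDHFD replicate 1 (0.127), MCDHFD replicate 3 (0.0736), ND replicate 2 (0.149) or ND replicate 3 (0.130). Phf10 averaged 759 ± 22.9 in MCDHFD and 662 ± 11.8 in ND (log2 fold change 0.20, limma adjusted p = 0.0212). It did not pass in edgeR (adjusted p = 0.0962), DESeq2 (adjusted p = 0.192), under quantile scaling (0.113), or without MCDHFD replicate 2 or 3 or ND replicate 2 or 3 (0.0581 to 0.0658). Brd7, a bromodomain subunit, fell by 0.41, with 711.5, 712.5 and 748.3 in MCDHFD, against 954.5, 974.7 and 966.0 in ND. Pbrm1 averaged 1926 ± 67.7 in MCDHFD and 2124 ± 129 in ND and did not pass (limma adjusted p = 0.0766).

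The 3 genes that mark the non-canonical complex were all lower at the deposited scaling, where 28.1% of all tested genes were lower, and the call of 1 of them, Bicral, was not stable. Brd9, its bromodomain subunit, had 894.1, 847.2 and 840.0 normalized counts in MCDHFD, against 1150, 1218 and 1121 in ND, a log2 fold change of -0.43. Bicra, which encodes the scaffold GLTSCR1, had 2068, 1859 and 2117 in MCDHFD, against 2994, 2781 and 3025 in ND, a log2 fold change of -0.54. In both genes the diets stood well apart. Bicral, the paralogue of Bicra, fell by 0.20 and was not called in DESeq2 (adjusted p = 0.0732) or without MCDHFD replicate 2 or 3 or ND replicate 1 (limma adjusted p = 0.109, 0.0673 and 0.109).

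Bcl11b and Bcl11a, subunit genes known from particular blood lineages, had the 2 lowest fold changes of the tested BAF genes. Bcl11b, a zinc finger subunit needed for T cell commitment, had 3479, 3060 and 3066 normalized counts in MCDHFD, against 6244, 6137 and 6214 in ND. It fell by 0.96 on the log2 scale (SE 0.06, limma adjusted p = 2.38e-06), beside a median of -0.99 for the CD8 T cell identity genes, and was at 0.06 with those genes held equal. Bcl11a, its paralogue known from B cells, plasmacytoid dendritic cells and erythroid globin switching, had 91.3, 143.5 and 113.0 in MCDHFD, against 391.6, 357.0 and 323.7 in ND, and fell by 1.64. B cell genes (median -1.89) and dendritic cell genes (median -1.86) were lower in the same libraries, and their part in the difference was not tested. Smarcd2, known for its role in mouse granulocyte development, had 1569, 1618 and 1664 in MCDHFD, against 2229, 2180 and 2165 in ND, and fell by 0.44. The neutrophil genes (14 of 16 tested higher, median 3.50) went the other way, and their part in the Smarcd2 difference was not tested.

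Actl6b, Dpf1 and Smarcd3, paralogues known from neurons or muscle, were at or near the detection floor. The floor of 3 counts corresponds to 2.82 to 3.36 normalized counts in these libraries. Actl6b, the neuronal paralogue of Actl6a, had 0, 2.0 and 0 in MCDHFD, against 2.0, 0 and 4.9 in ND. Dpf1 had 1.9, 1.0 and 0 in MCDHFD, against 2.9, 1.0 and 8.9 in ND, and Smarcd3 had 2.8, 5.9 and 5.6 in MCDHFD, against 5.9, 1.9 and 8.9 in ND. These 3 genes were not tested. Ss18l1, another subunit known from neurons, averaged 238 ± 19.1 in MCDHFD and 267 ± 27.0 in ND and did not pass (limma adjusted p = 0.233).

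The remaining accessory genes were lower or did not pass. Bcl7a had 357.6, 354.8 and 270.7 normalized counts in MCDHFD, against 692.1, 482.5 and 506.8 in ND, and fell by 0.77, and Bcl7c fell by 0.52. Their paralogue Bcl7b averaged 658 ± 29.1 in MCDHFD and 745 ± 40.7 in ND (limma adjusted p = 0.0562). Actb, which encodes the actin subunit and the cytoskeletal actin of all cells, averaged 18434 ± 1056 in MCDHFD and 18615 ± 1049 in ND (limma adjusted p = 0.867). Ss18, the subunit gene that is fused in synovial sarcoma, had 2176, 1976 and 964.2 in MCDHFD, against 2500, 2436 and 2507 in ND. MCDHFD replicate 3 stood far below the other MCDHFD libraries, and Ss18 did not pass with it (log2 fold change -0.63, limma adjusted p = 0.0628) but passed without it, at -0.26 (limma adjusted p = 0.0116). It also passed without MCDHFD replicate 1 or 2, at -0.85 and -0.78 (limma adjusted p = 0.0215 and 0.0468).

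Paralogous subunit genes were compared as log2 ratios within each library, for 8 of 11 pairs with both genes above the filter. Smarcd1 to Smarcd2 was -0.68, -0.80 and -0.73 in MCDHFD, against -1.23, -1.14 and -1.08 in ND, a difference of 0.41 with no overlap. Arid1a to Arid1b was 1.67, 1.73 and 1.77 in MCDHFD, against 1.88, 2.46 and 2.44 in ND, a difference of -0.54 with no overlap. In both pairs every MCDHFD library lay on 1 side of every ND library. Smarcc1 to Smarcc2 averaged -1.41 ± 0.07 in MCDHFD and -1.20 ± 0.08 in ND (SD, n = 3 each), also without overlap. Bcl11b to Bcl11a averaged 4.80 ± 0.42 in MCDHFD and 4.12 ± 0.13 in ND, and Dpf2 to Dpf3 5.80 ± 0.54 in MCDHFD and 7.94 ± 0.87 in ND. Smarca4 to Smarca2, the ATPase pair, averaged 0.20 ± 0.12 in MCDHFD and 0.09 ± 0.03 in ND, with overlap (exact permutation p = 0.3). Ss18 to Ss18l1 and Bcl7a to Bcl7c overlapped as well. The 5 pairs without overlap gave p = 0.1 in the exact permutation test and 0.16 after adjustment over the 8 pairs, so none passed, and 65.4% of single tested genes likewise did not overlap between the diets.

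**Figure D4:**
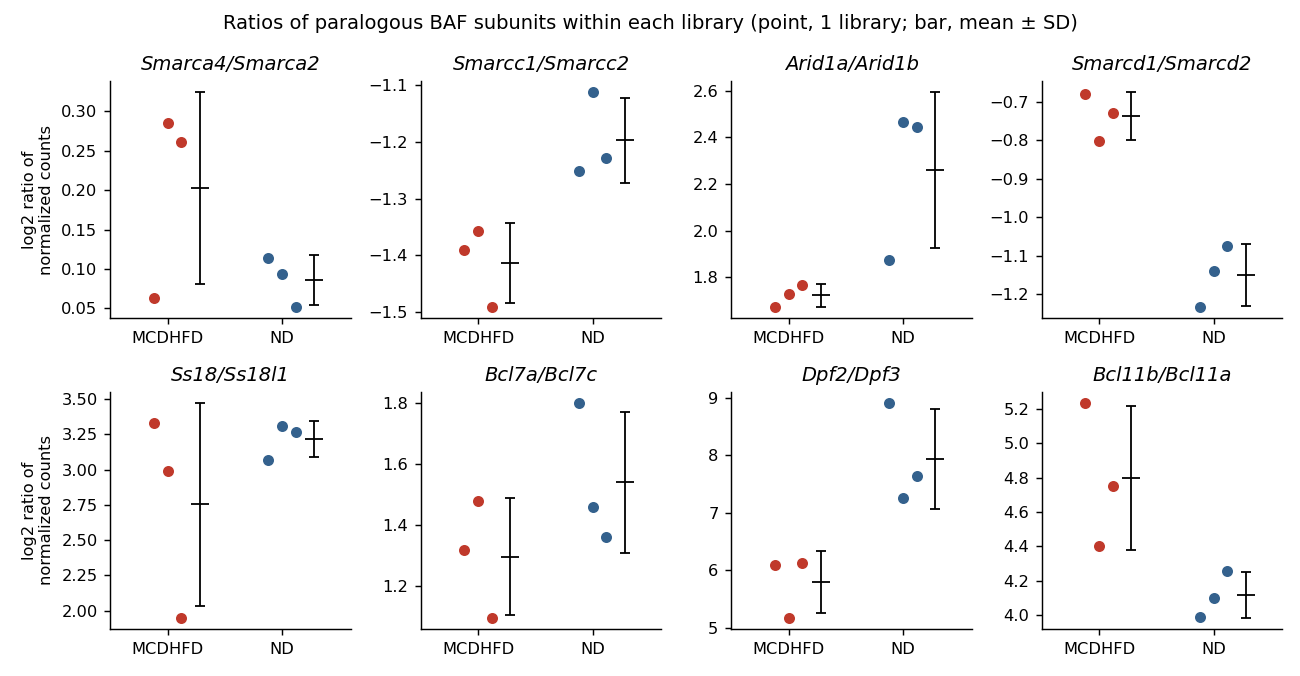
Log2 ratio of the normalized counts of 2 paralogous BAF subunit genes within each library (vertical axes, each with its own range), with 1 point per library and a bar for the mean ± SD, for the 3 MCDHFD and the 3 ND libraries. The diets are separated for Smarcc1/Smarcc2, Arid1a/Arid1b, Smarcd1/Smarcd2, Dpf2/Dpf3 and Bcl11b/Bcl11a, and overlap for the other 3 pairs.

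Trnp1 and Arid1a are neighbours on chromosome 4, with 180 kb between their annotated bodies, and went opposite ways at the deposited scaling. The table holds 15 genes within 250 kb of Trnp1, of which 12 were tested, 3 higher and 5 lower, and 58.4% of all tested genes were called, so the count does not set the neighbourhood apart. Between Trnp1 and Arid1a, Nudc, Zdhhc18 and Pigv were lower, Gpatch3, Gpn2 and Sfn did not pass and Kdf1 was not tested. Nudc and, on the other side of Trnp1, Sytl1 lost their calls in edgeR and DESeq2 and without MCDHFD replicate 2, MCDHFD replicate 3, ND replicate 2 or ND replicate 3. The count of lower neighbours was 3 in edgeR, in DESeq2 and without MCDHFD replicate 2, MCDHFD replicate 3 or ND replicate 3. In turn, the lower calls over all genes were 3540, 3028, 3469, 3425 and 3332, against 3772 in limma with all libraries. Pigv, an enzyme of GPI anchor synthesis, had 221.2, 198.5 and 253.9 normalized counts in MCDHFD, against 374.0, 327.8 and 407.8 in ND, a log2 fold change of -0.72. The nearest genes on either side, Tent5b and Kdf1, were close to the floor in both diets, with means of 0.328 and 4.86 in MCDHFD and 0.649 and 0.649 in ND.

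On the other side, Wdtc1 had 1928, 1693 and 1857 normalized counts in MCDHFD, against 1001, 690.7 and 785.9 in ND, a log2 fold change of 1.16, with 138 kb between it and Trnp1. Map3k6, a stress kinase gene 238 kb away, had 21.6, 36.4 and 30.2 in MCDHFD, against 1.0, 0 and 4.0 in ND, where it lay around the floor. Its log2 fold change was 3.80 (SE 0.61, limma adjusted p = 0.000659), a size that depends on the pseudocount. Tmem222 rose by 0.34, and Sytl1 fell by 0.43 with all 6 libraries.

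**Figure D5:**
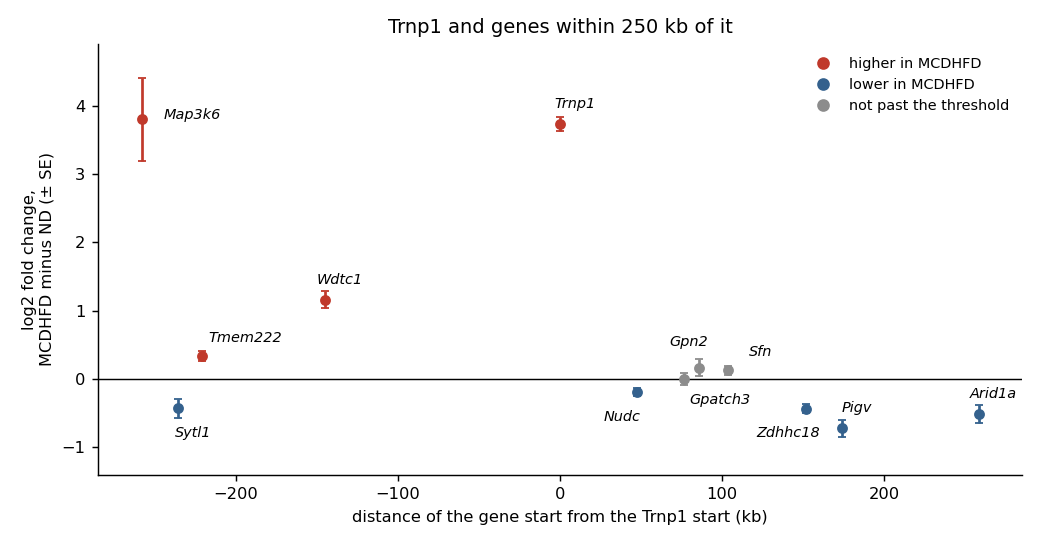
Log2 fold change, MCDHFD minus ND, with its SE from limma (vertical axis) of Trnp1, the 8 called genes around it and the tested genes between it and Arid1a, against the distance of each gene's start from the Trnp1 start in kb (horizontal axis). Trnp1 stands at 3.73, the tested genes between it and Arid1a lie between -0.72 and 0.16, and Wdtc1 (1.16) and Map3k6 stand higher on the other side. The height of Map3k6 depends on the pseudocount, since its ND libraries lie around the floor.

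The genes most like Smarca4 by the same measure were Pak4 (r = 0.9901), Ptcd1 (0.983), Crcp (0.979), Cnst (0.979) and Cplane1 (0.979). Smarca4 varied little, from 2943 to 3255 normalized counts, so this order rests on small differences between libraries.

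Other ATP-dependent remodellers give the setting for these counts. Of 12 tested genes of the ISWI family 5 were higher and 3 lower (median log2 fold change 0.03), beside 58.4% of all tested genes called, led by Cecr2, a partner of the ISWI ATPase (100.4 ± 21.6 normalized counts in MCDHFD and 41.2 ± 9.44 in ND, log2 fold change 1.26) and Baz1b, a subunit of the WICH complex (2884 ± 141 in MCDHFD and 4058 ± 37.9 in ND, log2 fold change -0.49). Of 21 tested genes of the INO80 and SRCAP complexes 3 were higher and 8 lower (median -0.14), likewise near that share, led by Znhit1, a SRCAP subunit (128 ± 30.1 in MCDHFD and 199 ± 31.8 in ND, log2 fold change -0.65) and Ruvbl2, a helicase-like ATPase (467 ± 50.3 in MCDHFD and 663 ± 11.6 in ND, log2 fold change -0.51). Without ND replicate 1 or ND replicate 3 the INO80 and SRCAP count was 7 in place of 11, and Znhit1 did not pass without ND replicate 1 (log2 fold change -0.53, limma adjusted p = 0.0683). Over all genes, 7211 were called without ND replicate 1 and 7118 without ND replicate 3, against 7837 with all libraries. Whether the BAF genes differ from these families was not tested.

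Library totals lay between 14119816 and 14752121 normalized counts. Correlations of log2 values were 0.981 to 0.984 between libraries of the same diet and 0.946 to 0.956 between diets.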

How the data were processed

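RNA of splenic CD8+ T cells was sequenced with kits for mRNA or for whole RNA, per the labels' protocols, which do not assign a kit to a library, with mm10 as the genome, per the submitters' processing notes. No aligner, counter, strand setting or annotation is named in the sources used here. The deposited values are a signal that the authors derived from read counts with 1 scaling factor per library, called normalized counts here, for 19323 Ensembl genes. Symbols were matched by identifier for 19202 genes, with positions and exon lengths from GENCODE M21. In 5 libraries 100% of the values were whole multiples of a step at a tolerance of 0.01, which gave 13188812 to 15482458 reads. In ND replicate 3 the step, 0.990, was too near 1 for the check on whole reads, so the count tests left that library out. The steps accepted for MCDHFD replicate 2 (0.983), ND replicate 1 (0.979) and ND replicate 2 (0.973) were only slightly smaller.

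MCDHFD was compared with ND by limma 3.58.1 (R 4.3.3, trend on, no covariate) on log2(value + 1), for the 13430 genes with a mean of 10 or more, and p-values were adjusted by Benjamini-Hochberg over these genes at a threshold of 0.05. Fold changes on this scale understate those of low genes. Single values were tested with the exact two-sided permutation test over 20 arrangements (SciPy 1.17.1), whose smallest p is 0.1. Levels of different genes were compared per kb of exons of protein-coding transcripts. The floor of 3 counts covers counting error only.

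The alternatives were pseudocounts of 0.5 and 5, no filter, a filter at a mean of 100, TMM and quantile scaling, equal CD8 T cell identity (20 genes), quality weights per library, a replicate block, each library left out, and edgeR 4.0.16 or DESeq2 1.42.0 with the reads of 5 libraries. In the 4 same-diet pairs with reads, chi-square over its degrees of freedom was 6.46 to 12.3, so no pair agreed within sampling noise. With simulated counts for MCDHFD against ND, limma called 48% of 50 genes changed 1.5-fold and 94% of 50 changed 2-fold. It also called 10 of the unchanged genes in this run of 13430 genes. Few genes were changed in the simulation and all shared a common dispersion, while 58.4% of tested genes were called in the data. The simulated shares therefore do not tell how many changes of a given size were missed in these data.

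The members, gene lists and pairs were chosen with earlier results of these data known. Genes named by rule are the 10 members, Tmf1, the other BAF subunits, the 2 most changed called genes of each comparison list, the 2 highest and 2 lowest called neighbours of Trnp1, the 5 genes most like Trnp1 and Smarca4 (mean of at least 50, no Gm or Rik symbols), Cd8a and Cd3e. Any other gene was named after its values were seen.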

Additional observations from a re-analysis of the deposited data

How the results depend on the processing

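Trnp1 kept its direction and its call under all 17 other settings. The count of called core BAF subunits stayed at 4 to 6 of 9, except with CD8 T cell identity held equal, where it was 9, all higher. That setting likewise gave 20 called INO80 and SRCAP genes, all higher, against 11 at the deposited scaling, and 83.2% of all tested genes were higher under it. In edgeR and DESeq2 the INO80 and SRCAP count was 7 and 5. With the reads of 5 libraries, edgeR called 7325 of 13835 genes in all and DESeq2 6561 of 19323, against 7837 of 13430 in limma. Libraries with the same replicate number in the 2 diets deviated together with correlations of 0.0365, 0.0621 and 0.00572, so the numbers were not read as pairs, although every library except ND replicate 3 correlated best with its own number, a hint from the data and not from the design. The replicate block gave 4 core BAF subunits and 7707 genes in all, against 7837, and of the BAF genes it changed only the call of Ss18, which then passed (log2 fold change -0.63, limma adjusted p = 0.0375). Leaving out 1 library gave 7 to 9 INO80 and SRCAP genes, 4 to 5 core BAF subunits and 11 to 13 other BAF subunits. The same runs called 7069 to 7677 genes in all, against 7837 with all libraries. Effects near 0 changed sign when 1 library was left out, over -0.055 to 0.0074 for Smarcd1, -0.11 to 0.022 for Tmf1, -0.028 to 0.066 for Arid1b and -0.060 to 0.027 for Actb. Arid1b was at -0.021 under quantile scaling, and Actb at 0.016 in edgeR and 0.023 in DESeq2.

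With CD8 T cell identity held equal, which moved the median of all tested genes by 1.01, log2 fold changes turned from negative to positive, by the construction of that scaling. They were 0.94 for Smarca4, 0.83 for Smarca2, 0.74 for Smarcc1, 0.96 for Smarcc2, 0.55 for Smarcb1, 0.99 for Smarcd1, 0.90 for Smarce1, 0.50 for Arid1a and 0.97 for Tmf1. Of the other BAF genes, Pbrm1 was at 0.87, Brd7 at 0.60, Brd9 at 0.58, Dpf2 at 0.69, Smarcd2 at 0.58, Actb at 0.9996, Ss18 at 0.39, Ss18l1 at 0.85, Bcl7a at 0.25, Bcl7b at 0.84, Bcl7c at 0.49, Bcl11b at 0.058, Bicra at 0.47 and Bicral at 0.82. Elsewhere Baz1b was at 0.52, Znhit1 at 0.36, Ruvbl2 at 0.50, Pigv at 0.29, Pak4 at 0.84, Ptcd1 at 0.84, Crcp at 0.84, Cnst at 0.73, Cplane1 at 0.84 and Cd3e at 0.016. Depth limits Dpf1, Dpf3, Smarcd3, Actl6b and Map3k6, which lie near the floor of 3 counts in at least 1 diet.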
